A study of Drosophila melanogaster with 9 samples.

Results

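The oxidative phosphorylation genes code for the 5 protein complexes of the inner mitochondrial membrane that turn fuel into ATP. Their members were chosen by a rule on gene symbols, which was set with earlier results of these data known. Complex I genes begin with ND-, complex II genes are the Sdh genes, and complex III genes are UQCR genes with Cyt-c1 and RFeSP. Complex IV genes are COX4 to COX8 with cype, and complex V genes are the ATPsyn genes with blw. Of the 11982 genes that had a probe set with a single symbol, 74 were members. They fell into 32 genes of complex I, 3 of complex II, 9 of complex III, 15 of complex IV and 15 of complex V. A further 15 Drosophila genes with fitting symbols were not analysed here, among them SdhA, UQCR-C1, UQCR-C2, ND-23, ND-24, ND-30, ND-49 and COX6B. The members were carried by 83 probe sets, and each gene is represented by its probe set with the highest mean signal.

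Tumors were started as MARCM clones in the gut of adult female flies. The clones carried the null allele ApcQ8 and the loss-of-function allele Apc2N175K, and expressed UASRasV12, UASSnail and UASGFP under Esg-Gal4, a driver of intestinal progenitor cells. Macrometastases of the abdomen from 3 flies were then passed through young adult female yw hosts, and a sample of each was taken at transplant round 1 (T1), round 2 (T2) and round 10 (T10). All 3 rounds thus share genotype, driver and mode of growth, and differ in the number of passages and with it in the time of growth. The study also describes epithelial organization in some regions of T10 tumors and a non-epithelial one in T1. Passages, time and tissue organization cannot be told apart here. The 9 Affymetrix arrays, 3 per round, hold no primary tumor and no wild-type gut. According to the sample labels, replicates within a round are technical ones, so a p-value here reflects only how far these samples differ, which may be technical in part. How technical replicates fit with 3 metastases is unresolved, as is whether a replicate number stands for the same metastasis in each round. The labels give growth at 25 °C, a lower temperature than the study's methods.

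In the respiratory chain, complex I takes electrons from NADH and complex II takes them from succinate, and both pass them to ubiquinone. Complex III hands them on to cytochrome c and complex IV gives them to oxygen. Complexes I, III and IV pump protons out of the matrix, and complex V, the ATP synthase, lets the protons back in and makes ATP. A few core subunits are encoded by mitochondrial DNA, and all others, which include every gene described here, by the nucleus. In tumors the balance between this route and glycolysis has been studied widely. Drosophila also has duplicate copies of many subunit genes, with symbols that end in L or in L and a digit, and several of these duplicates are known for expression in testis. The members comprised 55 standard subunits and 19 such paralogs, which are described apart below.

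Several facts of the arrays bear on these values. Values are log2 signals after RMA, and the median over all probe sets was 6.47 to 6.71 per array. One array, T2 replicate 3, was nearer to T10 than to its own round, with correlations over all probe sets of 0.964 to 0.984 to T10 arrays and 0.932 to 0.95 to the remaining T2 arrays, and each result is also given without it where that moves a call. Its distance from the other T2 arrays had a median of 0.14 log2 over the members and 0.22 over all probe sets. Over lists of marker genes, the mean log2 signal of 5 intestinal progenitor markers was 9.5 to 10.1 in T1, 9.2 to 10.5 in T2 and 8.18 to 9.04 in T10, and that of 7 tracheal markers was 5.6 to 6.73 in T1, 5.9 to 9.13 in T2 and 8.95 to 9.53 in T10. The means of 6 enterocyte and 6 enteroendocrine markers were 4.94 to 5.32 and 4.11 to 4.54, below the array medians. Between T10 and T1 the enterocyte markers had 2 positive and 4 negative changes, and the enteroendocrine markers 1 and 5. Without overlap, 2 enterocyte markers were higher and 2 lower in T10, against 12.9% and 15.1% of all probe sets. The progenitor markers did not move as one between T10 and T1: 4 of the 5 had a negative change, from -0.27 for E(spl)mbeta-HLH and -1.01 for esg to -3.99 for Sox21a and -4.56 for Sox100B, and Delta had a positive one of 3.36. Of the tracheal markers, 6 of 7 had a positive change, and btl, at 7.69, 8.18 and 8.45 in T10 and 8.99, 9.29 and 10.58 in T1, a negative one of -1.51. The mean of 12 hemocyte markers was 5.25 to 5.46 in T1, 5.38 to 5.69 in T2 and 5.47 to 6.01 in T10, all below the array medians. T10 and T1 did not overlap, though the nearest arrays were at 5.47 and 5.46. Of the 12 genes 10 had a positive and 2 a negative change between T10 and T1. Markers of muscle, a tissue rich in these complexes, and of fat body had their highest signals in T2 replicate 2, at 6.4 for 10 muscle genes (4.99 to 6.12 in the other 8 arrays) and 7.54 for 11 fat body genes (5.81 to 6.49 in the other 8 arrays). The part of these markers in the results was not tested, and in bulk samples fewer cells of a type and less RNA per cell cannot be told apart.

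The oxidative phosphorylation genes differed little between T10 and T1 in these arrays. The median log2 change of the 74 members (T10 minus T1) was -0.00333, beside a median of -0.01 over all 18769 probe sets tested, and the single changes ran from -0.68 to 0.44. No member had a change beyond 1 log2, which is 2-fold, while 10.3% of all probe sets and 15% of the probe sets at or above the median mean signal did. With limma on all 9 arrays, 0 of the 74 members passed an adjusted p under 0.05, against 2 of all 18769 probe sets (0.0107%), and the smallest adjusted p among the members was 0.119. On the arrays of T10 and T1 alone 0 members passed, against 1122 probe sets in all (5.98%). Without T2 replicate 3, 0 members passed, against 1430 probe sets (7.62%). At an unadjusted p under 0.05, 6 members were counted (8.11% of them), 2 higher and 4 lower in T10, against 20.8% of all probe sets, 9.34% higher and 11.5% lower.

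The standard subunits had changes closer to 0 than the paralogs. Among the 55 standard subunits the median size of the change between T10 and T1, taken without its sign, was 0.09 log2, against 0.153 for the 19 paralogs, 0.19 over all probe sets and 0.293 over the probe sets at or above the median mean. The last is the nearer background, since 54 of the 55 standard subunits had such bright probe sets, the exception being ND-B8 with values of 4.52 to 5.16. It is not matched for signal, as its median mean was 9.16, against 11.07 for the standard subunits. A p that misses the threshold does not show that values did not differ, so the intervals are counted as well. The 95% interval of the change lay within 0.5 log2 of 0, or 1.41-fold, in 43 of 55 standard subunits (78.2%) and 10 of 19 paralogs (52.6%). The share was 40.4% of all probe sets and 26% of those at or above the median mean. The interval lay within 1 log2 of 0 in 54 of 55 standard subunits, the exception being UQCR-11. It did so in 72.3% of all probe sets and 64.2% of those at or above the median mean. The spread showed the same order. The SD of the log2 value over all 9 arrays, rounds included, had a median of 0.128 for the standard subunits, 0.195 for the paralogs, 0.233 for all probe sets and 0.285 for those at or above the median mean. These figures describe the lists, and no test was made of the difference between them.

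**Figure D1:**
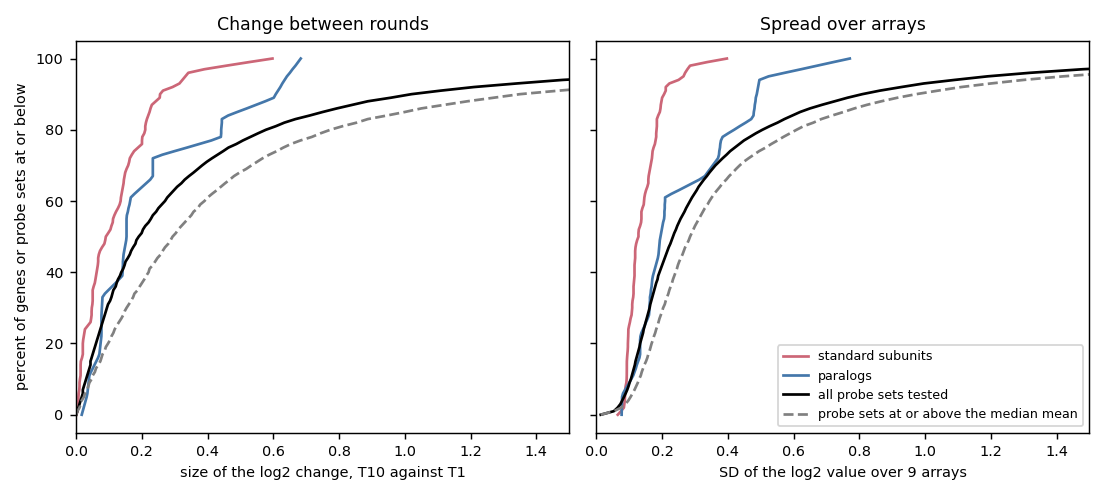
Left, the share of genes or probe sets (percent, vertical axis) whose log2 change between T10 and T1, without its sign, is at or below the value on the horizontal axis; right, the same for the SD of the log2 value over 9 arrays. Red stands for 55 standard subunits, blue for 19 paralogs, black for 18769 probe sets and dashed grey for the 9385 at or above the median mean; the axes end at 1.5, before the last of the black and grey curves, and the red curve ends at 0.6 on the left and 0.397 on the right.

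Complex I had 27 standard subunits with values. Their median change was -0.05 between T10 and T1, with 7 positive and 19 negative changes, from -0.47 to 0.23. In single arrays the median of these subunits, each set against its own mean over the 9 arrays, was 0.0933, 0.0644 and -0.0511 in T1, 0.121, 0.0133 and -0.0656 in T2 and -0.0378, -0.123 and 0.02 in T10. The ranges of the rounds overlapped.

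Among the subunits that carry the electrons inside complex I, ND-75, which holds several iron-sulfur clusters, was at 10.77, 10.31 and 10.37 in T10 and 10.67, 10.86 and 10.52 in T1, a change of -0.20 (standard error 0.169). ND-51, which binds NADH and the flavin, was at 11.04, 11.27 and 11.25 in T1, 11.35, 11.24 and 11.09 in T2 and 10.89, 11.00 and 11.07 in T10. All its T10 values were below all its T2 values, with a change of -0.24 (adjusted p = 0.31 from limma), and they overlapped those of T1. ND-20, next to the site where ubiquinone is reduced, had a change of 0.02 (standard error 0.0973) and spanned only 0.26 log2 over the 9 arrays.

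The accessory subunits held the lowest and the highest change of the complex. ND-13A, a small zinc-binding subunit of the matrix arm, was at 11.05, 10.85 and 10.52 in T1, 10.84, 10.62 and 10.39 in T2 and 10.35, 10.25 and 10.42 in T10. Each T10 array lay below each T1 array, a change of -0.47 (standard error 0.165) or 0.724-fold, with an adjusted p of 0.167 from limma. ND-B14.7, a subunit of the membrane arm, was at 11.12, 10.95 and 11.01 in T1, 11.08, 10.97 and 11.08 in T2 and 11.32, 11.18 and 11.27 in T10. Here T10 stood above both earlier rounds in every array. Its change was 0.23 against T1 (95% interval 0.03 to 0.43, adjusted p = 0.195) and 0.21 against T2 (adjusted p = 0.281), from limma. ND-B16.6 was at 10.19, 9.88 and 10.24 in T10 and 10.49, 10.49 and 10.31 in T1, which did not overlap, with a change of -0.33 (adjusted p = 0.258). ND-ACP, the mitochondrial acyl carrier protein, was at 11.45, 11.58 and 10.90 in T1, 11.18, 10.85 and 10.88 in T2 and 11.08, 10.97 and 10.95 in T10. T1 replicate 3 was as low as the later rounds, and the change between T10 and T1 was -0.31 at the probe set used and -0.37 and -0.35 at its other 2 probe sets, with adjusted p-values of 0.254 to 0.448 over the 3. ND-42, a kinase-like subunit, had mean signals in the 3 rounds that were equal to 2 decimals, and its interval for T10 against T1 was -0.24 to 0.24.

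**Figure D2:**
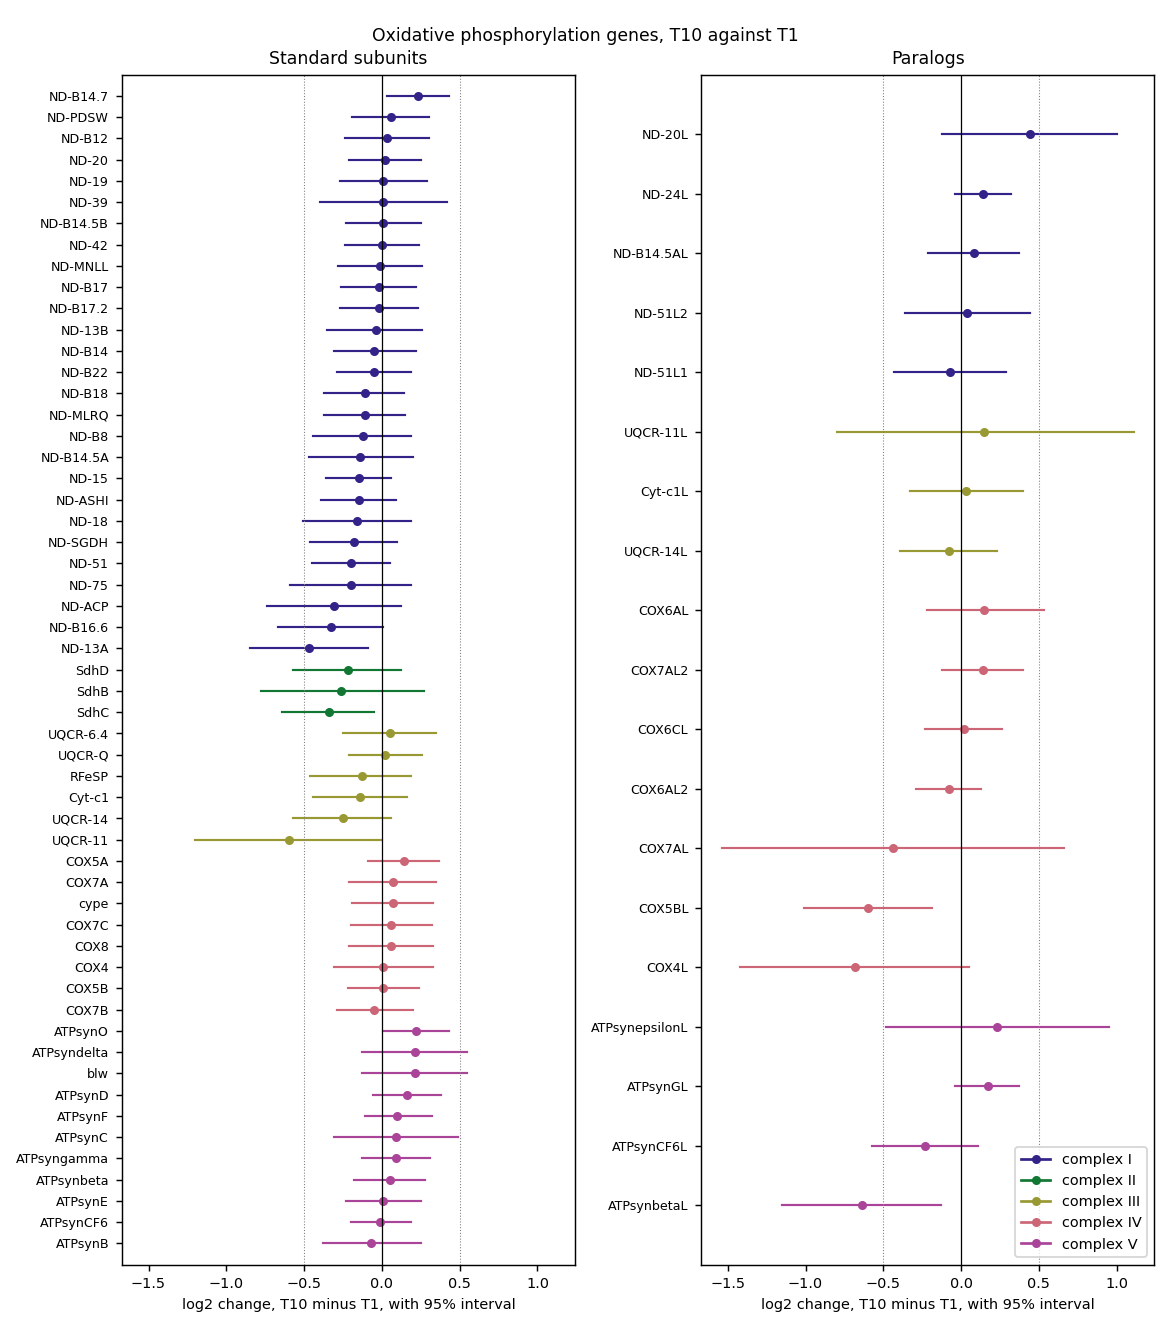
Log2 change between T10 and T1 (horizontal axis, T10 minus T1) of each of the 74 genes, with the standard subunits left and the paralogs right. Points are limma estimates on 9 arrays, bars are 95% intervals, colors mark the complex and dotted lines stand at 0.5 log2 on either side of 0; the standard subunits run from -0.6 for UQCR-11 to 0.23 for ND-B14.7, and the paralogs from -0.68 for COX4L to 0.44 for ND-20L.

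Complex II is also an enzyme of the citric acid cycle. Its 3 measured subunits all had lower mean values in T10 than in T1, with a median change of -0.257, though none passed the threshold. SdhC, one of the subunits that anchor the complex in the membrane, was at 11.34, 11.12 and 11.03 in T1, 11.13, 11.15 and 10.93 in T2 and 10.71, 10.75 and 11.00 in T10. The T10 and T1 arrays did not overlap, and the change was -0.34 (standard error 0.127, 95% interval -0.64 to -0.05, adjusted p = 0.182 from limma). SdhD, the other anchor, was at 10.31, 9.95 and 10.18 in T10 and 10.58, 10.36 and 10.17 in T1, a change of -0.22 (adjusted p = 0.438). SdhB, the iron-sulfur subunit, was at 11.08, 10.49 and 10.68 in T10 and 11.09, 11.10 and 10.83 in T1, a change of -0.26 (adjusted p = 0.575). In both, the rounds overlapped. For the median of the 3 genes relative to their means, the ranges of the rounds overlapped as well. This median was 0.321, 0.102 and -0.0211 in the T1 arrays, 0.161, -0.0111 and -0.139 in the T2 arrays and 0.0511, -0.309 and -0.0789 in the T10 arrays.

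In complex III, the 6 standard subunits had a median change of -0.138, with 2 positive and 4 negative changes. The catalytic subunits with values were Cyt-c1, the heme protein that reduces cytochrome c, and RFeSP, the Rieske iron-sulfur protein. Cyt-c1 was at 12.39, 12.09 and 12.27 in T10 and 12.41, 12.47 and 12.30 in T1, a change of -0.14 (standard error 0.129). RFeSP was at 10.04, 9.72 and 9.92 in T10 and 10.16, 10.01 and 9.91 in T1, a change of -0.13 (standard error 0.141). UQCR-11, a small accessory subunit, had the lowest change of the standard subunits. It was at 8.81, 8.71 and 8.19 in T1, 8.71, 7.75 and 8.28 in T2 and 8.07, 7.81 and 8.04 in T10. Its T10 values lay below those of T1 but not below the value of T2 replicate 2, and the change was -0.60 (standard error 0.259, adjusted p = 0.242 from limma) or 0.661-fold. UQCR-14 had a change of -0.25, UQCR-6.4 of 0.05 and UQCR-Q of 0.02.

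The 8 standard subunits of complex IV, cytochrome c oxidase, had a median change of 0.0617 between T10 and T1, with 7 positive changes and 1 negative, all between -0.05 and 0.14. The 95% interval of each lay within 0.5 log2 of 0. COX5A, a subunit on the matrix side, was at 12.12, 12.04 and 12.11 in T1, 12.29, 12.16 and 12.35 in T2 and 12.24, 12.09 and 12.36 in T10. All T2 arrays were above all T1 arrays, a change of 0.18 between T2 and T1 (standard error 0.1, adjusted p = 0.76 from limma), while T10 overlapped both. COX4, in mammals a site of control by ATP, had a change of 0.01 between T10 and T1, and COX5B likewise 0.01 with an interval of -0.22 to 0.24. The changes of COX7A, cype, COX8 and COX7C lay between 0.06 and 0.07, and that of COX7B was -0.05.

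Complex V leaned the other way from complexes I to III. Of its 11 standard subunits, 9 had a positive and 2 a negative change between T10 and T1, with a median of 0.09, from -0.07 to 0.22, and none passed the threshold. In the F1 head, which makes ATP, the catalytic subunit ATPsynbeta was at 12.46, 12.31 and 12.50 in T10 and 12.28, 12.36 and 12.48 in T1, a change of 0.05 (standard error 0.0974). The alpha subunit blw was at 12.17, 12.16 and 12.48 in T1, 12.59, 12.32 and 12.34 in T2 and 12.72, 12.32 and 12.40 in T10, a change of 0.21 (standard error 0.149 and adjusted p of 0.472 from limma). T1 replicate 3 alone kept the T10 and T1 arrays of blw from standing apart. ATPsyndelta, in the rotating stalk, was at 11.04, 10.89 and 10.97 in T1, 11.16, 10.98 and 11.23 in T2 and 11.42, 10.88 and 11.23 in T10, with a change of 0.21 between T10 and T1 and 1 T10 array below all T1 arrays. ATPsyngamma, its neighbour in that stalk, had a change of 0.09. ATPsynO, which ties the head to the fixed stalk, was at 11.83, 11.85 and 11.99 in T1, 12.00, 11.99 and 12.08 in T2 and 12.16, 12.00 and 12.16 in T10. Its T10 values were above its T1 values by as little as 0.01 between the nearest arrays, and its change was 0.22 (standard error 0.0901, adjusted p = 0.225). ATPsynD, in the fixed stalk, was at 11.83, 11.77 and 11.94 in T10 and 11.73, 11.58 and 11.74 in T1, again without overlap, with a change of 0.16 (adjusted p = 0.375). ATPsynC, whose product forms the ring in the membrane, had a change of 0.09 (standard error 0.172). ATPsynCF6 had the smallest spread of all members, with an SD of 0.065 over the 9 arrays.

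**Figure D3:**
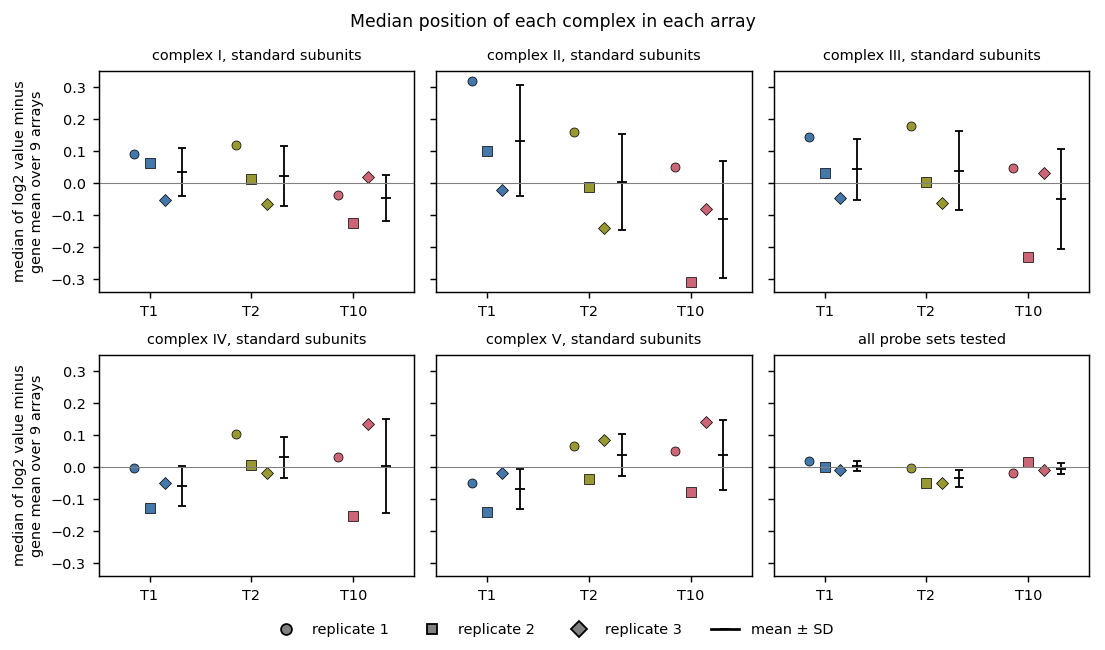
Median over the standard subunits of each complex of the log2 value minus the gene's mean over 9 arrays (vertical axis, log2) in each array, by round, with all 18769 probe sets in the last panel. Points are arrays, shaped by replicate number, and bars give the mean and SD of 3 arrays; in complex V the mean is -0.0682 in T1, 0.0385 in T2 and 0.0392 in T10, in complex II 0.134, 0.00363 and -0.112, and the ranges of the rounds overlap in each complex.

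In each complex the per-array medians of the rounds overlapped. The per-array medians of complex V were -0.0489, -0.139 and -0.0167 in T1, 0.0667, -0.0356 and 0.0844 in T2 and 0.0522, -0.0756 and 0.141 in T10, so T2 and T10 each had 1 array within the T1 range. T10 replicate 2 was the lowest of the T10 arrays for each of the 5 complexes, with medians of -0.123 for complex I, -0.309 for II, -0.23 for III, -0.153 for IV and -0.0756 for V. Over the same array the median of all probe sets was 0.0156. With the array medians set equal or with quantile normalization, the medians of the 5 complexes for T10 against T1 kept their signs, at -0.0633 and -0.037 for complex I, -0.27 and -0.229 for II, -0.152 and -0.129 for III, 0.0483 and 0.0767 for IV and 0.0767 and 0.117 for V. Without T10 replicate 3, the median of complex IV turned to -0.0133. Without replicate 3 of every round, the median of complex I was -0.15.

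The arrays of T10 and T1 did not overlap in 11 members, 4 higher in T10 (5.41%, against 12.9% of all probe sets) and 7 lower (9.46%, against 15.1%). The higher ones were ND-B14.7, ATPsynD, ATPsynO and the paralog ND-24L. The lower ones were ND-13A, ND-15, ND-B16.6, SdhC, UQCR-11 and the paralogs COX5BL and ATPsynbetaL. These shares were below the background in both directions. With 3 arrays in each round a two-sided exact permutation test cannot go below p = 0.1, which is what each of these 11 genes gave.

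**Figure D4:**
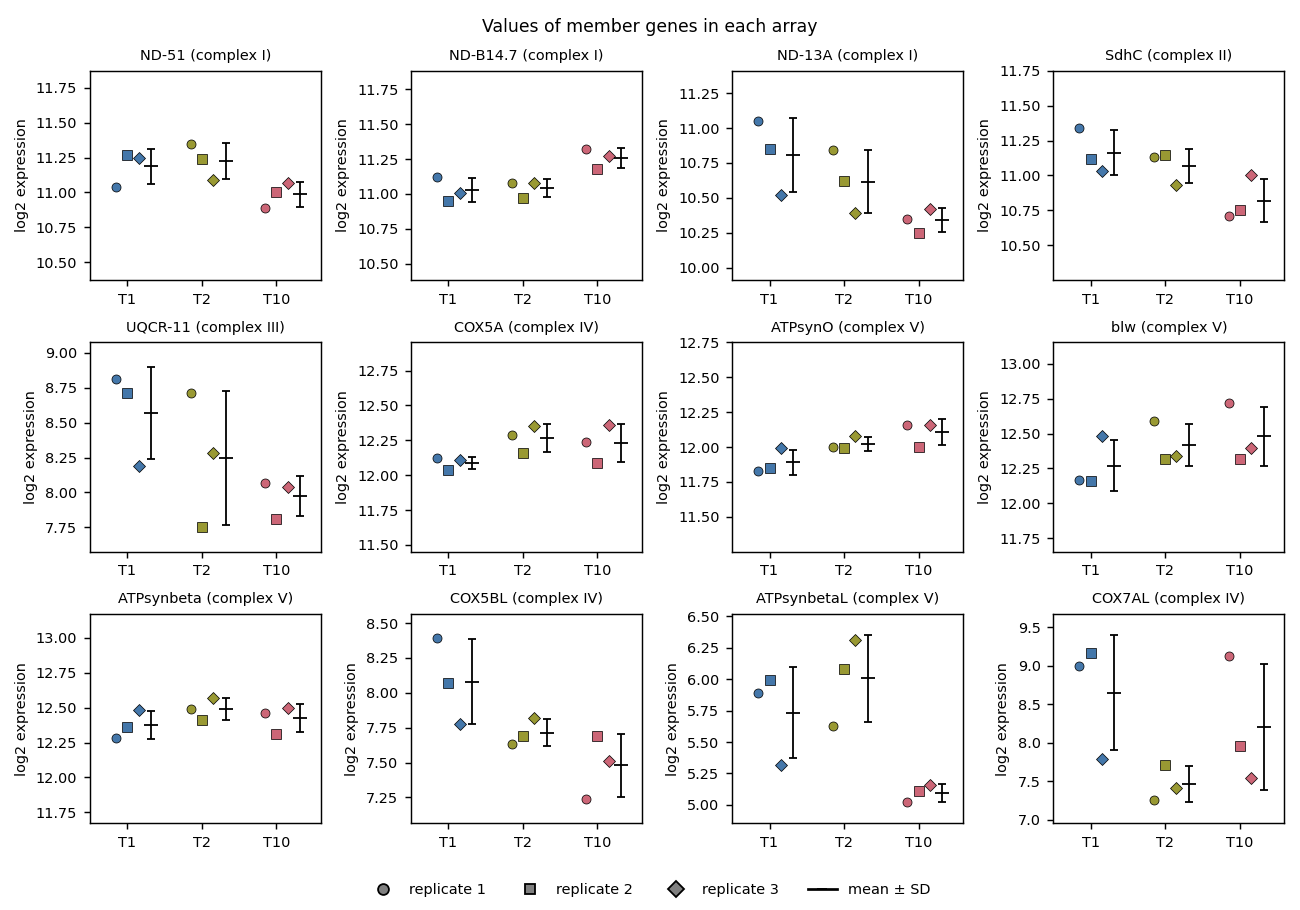
Log2 expression (vertical axis, a scale of its own for each gene) of 12 members in each of the 9 arrays, by round. Points are arrays, shaped by replicate number, and bars give the mean and SD of 3 arrays; ND-B14.7 is highest in all 3 T10 arrays and ATPsynbetaL is lowest in them, while blw, ATPsynbeta and COX5A overlap between T10 and T1.

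The paralogs gave weaker signals and wider spreads. Only 4 of 19 had a mean at or above the median of all probe sets, and 7 of 19 had an SD above 0.25 over the 9 arrays, against 4 of 55 standard subunits. Their median change between T10 and T1 was 0.0333, with 11 positive and 8 negative changes. COX5BL, the duplicate of COX5B, was at 8.39, 8.07 and 7.78 in T1, 7.63, 7.69 and 7.82 in T2 and 7.24, 7.69 and 7.51 in T10. The T10 arrays lay below all T1 arrays, a change of -0.60 (standard error 0.177, 95% interval -1.01 to -0.19) or 0.66-fold, and its adjusted p of 0.119 from limma was the smallest of the members. COX5B itself was at 11.11, 10.95 and 11.17 in T10 and 11.09, 11.08 and 11.03 in T1. Signals of different probe sets cannot be set against each other as levels, and only the changes can. The mean log2 signal of 9 markers of the ovary and testis germline was 4.83 to 4.94 in T1, 4.76 to 4.9 in T2 and 4.43 to 4.81 in T10, all below the array medians. It was lower in T10 than in T1 without overlap, though the nearest arrays were at 4.81 and 4.83. Of the 9 genes 7 had a negative and 2 a positive change, with a median of -0.0767. The part of these markers in the changes of the paralogs was not tested.

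ATPsynbetaL, the duplicate of the catalytic beta subunit, was at 5.89, 5.99 and 5.32 in T1, 5.63, 6.08 and 6.31 in T2 and 5.02, 5.11 and 5.16 in T10. Each T10 array lay below all arrays of both earlier rounds. Its change was -0.91 against T2 (standard error 0.221, adjusted p = 0.182 from limma) and -0.64 against T1 (adjusted p = 0.162). All these values were below the median signal of the arrays. COX4L was at 6.81, 7.04 and 5.77 in T1, 6.15, 6.21 and 6.74 in T2 and 5.86, 5.86 and 5.85 in T10. T1 replicate 3 was the lowest array of all, so that T10 and T1 overlapped, with a change of -0.68 (adjusted p = 0.274). Without T1 replicate 3 the change was -1.07 and the adjusted p was 0.0467 in limma, a setting in which 351 of all 18769 probe sets passed as lower. With weights that count arrays far from their round for less, ATPsynbetaL (adjusted p = 0.0436 from limma), COX5BL (0.0431) and ND-13A (0.0499) were lower in T10 than in T1. ATPsynbetaL (0.0381) was also lower than in T2. In that setting 1108 of all 18769 probe sets passed as lower against T1 and 675 against T2.

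Among the other paralogs, ND-20L had the highest change between T10 and T1, 0.44 (standard error 0.241), which rested on T10 replicate 2 at 5.41 and replicate 3 at 4.82, against 4.49, 4.26 and 4.54 in T1, while T10 replicate 1 was at 4.38 and the T2 arrays at 4.35, 4.19 and 4.47. With values under 5 set to 5 its change was 0.14. UQCR-11L ranged from 6.56 in T1 replicate 1 to 8.28 in T1 replicate 3, a range wider than any difference between its round means, and had a change of 0.15 (standard error 0.413). ATPsynepsilonL was at 5.81, 6.50 and 5.73 in T1, 5.84, 5.62 and 6.65 in T2 and 6.01, 6.48 and 6.25 in T10, with overlap between all rounds and a change of 0.23 (standard error 0.309). ND-24L, ATPsynGL and COX7AL2 had changes of 0.14 to 0.17 at mean signals of 4.90 and less in T1.

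Between T10 and T2 the members likewise differed little. Their median change was -0.0167, beside 0.04 over all probe sets (-0.0575 and 0.03 without T2 replicate 3), and the 55 standard subunits ran from -0.28 to 0.27. With limma on all 9 arrays, 0 members passed the threshold and 0 of all probe sets did (0%). Without T2 replicate 3, 0 members passed, with a smallest adjusted p of 0.102, against 1401 probe sets (7.46%). At an unadjusted p under 0.05, 3 members were counted (4.05%, against 17% of all probe sets): ND-B14.7 and ATPsynGL higher (8.45% of all probe sets were) and ATPsynbetaL lower in T10 (8.6%). The arrays did not overlap in 4 members that were higher in T10 (5.41%, against 11.9%), namely ND-B12, ND-B14.7, ND-24L and ATPsynGL, and in 3 that were lower (4.05%, against 9.41%), namely ND-51, COX4L and ATPsynbetaL.

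ND-B12, a membrane arm subunit of complex I, was at 10.84, 11.13 and 10.81 in T1, 10.75, 10.68 and 10.63 in T2 and 11.07, 10.97 and 10.82 in T10. T2 was thus below both other rounds in every array, with a change of 0.27 between T10 and T2 (adjusted p = 0.297 from limma) and -0.24 between T2 and T1 (adjusted p = 0.76). ATPsynGL, the duplicate of subunit g, was at 3.76, 3.62 and 3.57 in T1, 3.61, 3.54 and 3.49 in T2 and 3.84, 3.85 and 3.76 in T10, a change of 0.27 between T10 and T2 (adjusted p = 0.229) at signals among the lowest of the members. With values under 5 set to 5 nothing of it was left (a change of 0). By complex, the medians for T10 against T2 were -0.06 for complex I, -0.113 for II, -0.0767 for III, -0.0217 for IV and 0.04 for V. Without T2 replicate 3 they were -0.112, -0.255, -0.173, -0.0583 and 0.025. With array medians set equal, the median of all probe sets moved to 0.13. In that setting the medians of complexes I, III and IV turned positive, at 0.03, 0.0133 and 0.0683.

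Between T2 and T1 the median change of the members was -0.00333, beside -0.0333 over all probe sets (0.0408 and -0.0367 without T2 replicate 3). With limma on all 9 arrays 0 members passed, against 1 of all probe sets (0.00533%), and the same counts came from the arrays of T2 and T1 alone and from the fit without T2 replicate 3. The smallest adjusted p among the members was 0.76. At an unadjusted p under 0.05, 1 member was counted (1.35%, against 6.16% of all probe sets), and it was lower in T2, as were 4.15% of all probe sets. This was COX7AL, a duplicate of COX7A, at 9.0, 9.16 and 7.79 in T1, 7.25, 7.71 and 7.41 in T2 and 9.12, 7.96 and 7.54 in T10. Its change between T2 and T1 was -1.19 (standard error 0.474, 95% interval -2.29 to -0.09, adjusted p = 0.76 from limma), the one change beyond 1 log2 in the 3 comparisons, and its SD of 0.771 over the 9 arrays was the highest of the members. In T1 and T10 alike, replicate 3 was its lowest array. COX7A itself was at 11.89, 11.69 and 11.74 in T2 and 11.78, 11.55 and 11.67 in T1.

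The arrays of T2 and T1 did not overlap in 3 members that were higher in T2 (4.05%, against 2.57% of all probe sets), namely ND-19, COX5A and COX7C, and in 3 that were lower (4.05%, against 6.86%), namely ND-B12, ND-51L1 and COX7AL. ND-19, an accessory subunit of complex I, was at 10.81, 10.71 and 10.65 in T2 and 10.63, 10.56 and 10.58 in T1. COX7C was at 11.84, 11.81 and 11.77 in T2 and 11.74, 11.60 and 11.74 in T1. The differences were 0.13 and 0.11, each with an adjusted p of 0.801 or more. In complex V all 11 standard subunits had a positive change between T2 and T1, with a median of 0.113 and a highest value of 0.16, against 0.01 with array medians set equal, a setting that moved the median of all probe sets to -0.137. The median of complex IV was 0.0667, and -0.0367 in that setting. The medians of complexes I, II and III were -0.00667, -0.11 and -0.045, and that of complex I was 0.0122 with quantile normalization. Without T2 replicate 3 the medians of complexes I to V were 0.0383, -0.0233, 0.0217, 0.113 and 0.0867.

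Genes that work beside the complexes were read from lists of their own, and none of their genes passed with limma on all 9 arrays, equally weighted, in any comparison. For the 10 measured genes of the list of carriers, ubiquinone synthesis and other feeders of ubiquinone, all 10 changes between T10 and T1 were negative, with a median of -0.273, where 9687 of all 18769 probe sets had a negative change. At an unadjusted p under 0.05 there were 4 of the 10, against 11.5% of all probe sets that were lower in T10. Coq9, needed to make ubiquinone, was at 10.69, 11.00 and 9.94 in T1, 10.19, 10.01 and 8.59 in T2 and 9.23, 9.01 and 9.04 in T10. Its change between T10 and T1 was -1.45 (standard error 0.436) or 0.366-fold, with an adjusted p of 0.123 on all 9 arrays, 0.0407 on the arrays of T10 and T1 alone and 0.0207 without T2 replicate 3, in limma. Between T10 and T2 the change of Coq9 was -0.50 (adjusted p = 0.559 from limma). Without T2 replicate 3 it was -1.01, with an adjusted p of 0.0894 from limma, and of 0.0247 when T1 was left out too. Gpo2, a glycerol-3-phosphate dehydrogenase that gives electrons to ubiquinone, was at 8.31, 8.66 and 7.59 in T1, 7.79, 7.73 and 7.44 in T2 and 7.26, 7.16 and 7.06 in T10, a change of -1.03 (adjusted p = 0.0963). It passed in limma with array weights (adjusted p = 0.0226), with T1 replicate 3 left out (0.0296) and with replicate 3 of every round left out (0.0174). Of all probe sets, 1108, 351 and 793 passed as lower in these settings. Coq2, Coq5 and Coq8, also of ubiquinone synthesis, had changes of -0.43, -0.54 and -0.59, while Coq3, Coq7 and Dhod had changes of -0.01, -0.04 and -0.01.

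The 14 measured genes of exchange across the mitochondrial membranes had a median change of -0.035 between T10 and T1. Both adenine nucleotide translocases, which trade ATP for ADP, were among them. Ant2 was at 8.93, 9.54 and 8.62 in T1, 10.02, 8.94 and 7.80 in T2 and 7.65, 7.30 and 7.62 in T10. T10 was below both earlier rounds in every array, and T2 replicate 3 was the nearest. Its change between T10 and T1 was -1.51 (standard error 0.51) or 0.352-fold, with an adjusted p of 0.155 on all 9 arrays, 0.0301 on the arrays of T10 and T1 alone and 0.0411 without T2 replicate 3. Between T10 and T2 its change was -1.40 (adjusted p = 0.254), and without T2 replicate 3 it was -1.96 (adjusted p = 0.0253 from limma). The other translocase, sesB, was at 12.96, 12.64 and 12.73 in T10 and 12.57, 12.45 and 12.71 in T1, a change of 0.20 (adjusted p = 0.385). The outer membrane channel porin, the phosphate carrier Mpcp2 and the import channel Tim23 had changes of 0.07, -0.03 and 0.01.

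**Figure D5:**
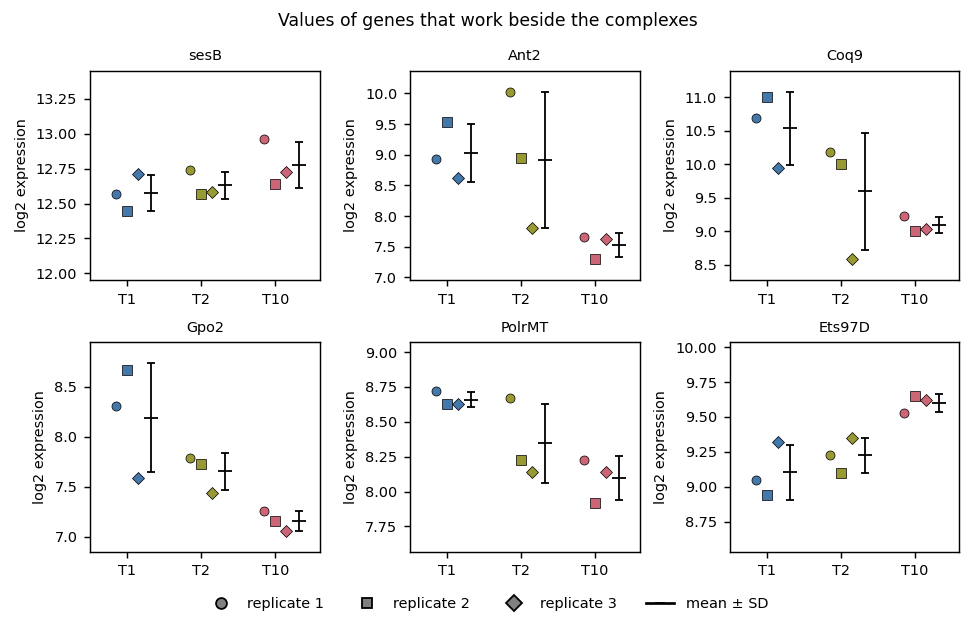
Log2 expression (vertical axis, a scale of its own for each gene) of 6 genes that work beside the complexes in each of the 9 arrays, by round. Points are arrays, shaped by replicate number, and bars give the mean and SD of 3 arrays. Ant2, Gpo2 and Ets97D in T10 do not overlap either earlier round. Coq9, Ant2, Gpo2 and PolrMT have their lowest T2 value in replicate 3, and sesB and Ets97D do not.

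In the list of mitochondrial gene expression and biogenesis, with 11 genes measured, the median change was -0.0467. PolrMT, the RNA polymerase of mitochondria, was at 8.72, 8.63 and 8.63 in T1, 8.67, 8.23 and 8.14 in T2 and 8.23, 7.92 and 8.14 in T10, a change of -0.56 (adjusted p of 0.107 on all 9 arrays, 0.0465 on the arrays of T10 and T1 alone and 0.0612 without T2 replicate 3, limma). Ets97D, the fly counterpart of a factor that drives nuclear respiratory genes in mammals, was at 9.05, 8.94 and 9.32 in T1, 9.23, 9.10 and 9.35 in T2 and 9.53, 9.65 and 9.62 in T10. T10 was above the other rounds in every array, with a change of 0.50 against T1 (adjusted p = 0.0963), which passed with array weights (adjusted p = 0.0242) and without T1 replicate 3 (0.0481), in limma. With array weights Ets97D also passed against T2 (adjusted p = 0.0495 from limma). Of all probe sets, 889 and 168 passed as higher against T1 in these settings, and 443 against T2 with array weights. TFAM, which packs mitochondrial DNA, had a change of 0.04, mtTFB2 of 0.35 and the fusion gene Marf of -0.47.

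The list of assembly factors had 9 measured genes with a median of -0.22. Surf1 and Scox, both needed to build complex IV, had changes in opposite directions, 0.31 (adjusted p = 0.162) and -0.36 (adjusted p = 0.208), each without overlap between T10 and T1. The 15 measured genes of pyruvate entry and the citric acid cycle had a median of -0.0733. Pdk, the kinase that shuts off pyruvate dehydrogenase, was at 9.52, 9.71 and 10.08 in T1, 10.11, 10.47 and 9.53 in T2 and 9.58, 7.88 and 8.61 in T10, a change of -1.08 (standard error 0.426, adjusted p = 0.205), with 1 T10 array inside the range of T1. With array weights its change against T2 was -1.72 (adjusted p = 0.041 from limma). Fum4, a fumarase, had a change of -0.70 at signals of 5.21 and less (adjusted p = 0.191). With values under 5 set to 5 this was -0.09 (adjusted p = 0.425), while it passed at -0.85 with array weights (adjusted p = 0.0427) and at -0.87 without replicate 3 of every round (0.0281), in limma. Ucp4A, an uncoupling protein of the exchange list, had a change of -0.31 (adjusted p = 0.305). Of 3 measured genes of the defence against peroxide and superoxide, Prx3, a peroxidase of the mitochondrial matrix, was at 11.38, 11.11 and 11.24 in T10 and 10.49, 10.89 and 10.90 in T1, a change of 0.48 (adjusted p = 0.113), the thioredoxin Trx2 had a change of 0.20 (adjusted p = 0.361) and Sod2 of -0.02.

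On the T10 and T1 arrays alone the genes of these pathway lists that passed were thus Coq9, Ant2 and PolrMT, 1 each of 10, 14 and 11 measured. All were lower in T10, where 2.99% of all probe sets passed in that direction. In the remaining lists 0 passed, of 9 assembly factors, 15 genes of pyruvate entry and the citric acid cycle and 3 of peroxide and superoxide defence. Subunits encoded by mitochondrial DNA were not analysed here.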

How the data were processed

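Total RNA (25 ng) from the allografts was made into cDNA, amplified over 17 cycles and hybridised to 9 Affymetrix Drosophila arrays. The authors applied RMA in R (affy, affyPLM) for background correction and summarization, and their deposited log2 values were used here without further scaling. Versions of these packages are not given. The 183 control probe sets were removed, and all 18769 others entered the tests, dim ones included. Symbols came from the platform annotation, updated through Entrez identifiers to RefSeq (Release 6 plus ISO1 MT, names only), and 13647 probe sets had 1 symbol. Rounds were compared by limma 3.58.1 under R 4.3.3, with lmFit and untrended eBayes fitted to the 9 arrays without covariates. The p-values were adjusted by Benjamini-Hochberg over all 18769 probe sets, with a threshold of 0.05. The limma fit was tested on simulated data, for T10 against T1 only. Groups and replicate numbers came from the sample labels.

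The members, gene lists and alternatives were chosen with earlier results of these data known, so lists are given by counts and medians with no list test. Named were the catalytic and structural subunits, the members with the 5 highest and 5 lowest changes for T10 against T1 and 3 each way for the other comparisons, and 2 genes of each pathway list with the smallest p. Members whose arrays did not overlap and other list genes were named after their values were seen. Alternatives were the choice of arrays, the replicate number as a block, moderation, array weights, a filter and a floor for dim signals, scaling, the probe set per gene, the threshold, and each array left out. The number of arrays limits the precision.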

Additional observations from a re-analysis of the deposited data

How the results depend on the processing

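Over the alternatives the number of members past the threshold stayed at 0 for T2 against T1, and was above 0 in 3 of 25 alternatives for T10 against T1 and in 1 of 26 for T10 against T2. With array weights it was 3 for T10 against T1 (889 higher and 1108 lower over all probe sets) and 1 for T10 against T2 (443 higher and 675 lower). With arrays left out it ranged from 0 to 1 for T10 against T1: it was 1, COX4L, without T1 replicate 3 (168 higher and 351 lower over all probe sets) and without replicate 3 of every round (656 and 793). Over all probe sets the count for T10 against T1 was 2 on 9 arrays, 1122 on the 2 rounds alone and 1430 without T2 replicate 3; for T10 against T2 it was 0, 0 and 1401, and 1024 on the 2 rounds alone without T2 replicate 3, a setting chosen after seeing the data, with 0 members. For T2 against T1 it was 1 on 9 arrays and 34 without T1 replicate 3. The cause of these differences was not tested. The median change of the members with arrays left out ranged from -0.0525 to 0.0125 for T10 against T1, from -0.0875 (without replicate 3 of every round) to 0.0333 for T10 against T2 and from -0.0425 to 0.0408 for T2 against T1. With array medians set equal it was 0.0733 for T10 against T2 and -0.107 for T2 against T1, where the median of all probe sets was 0.13 and -0.137. Several alternatives cannot alter a log2 change: the 2 rounds alone, the block, the moderation, the threshold, and leaving out an array of a round not compared. They are part of the totals that follow, which therefore say less about stability than their size implies. For the medians by complex, 6 of 380 alternative values moved by more than the spread between replicates and 21 had another sign. For single genes these numbers were 39 and 134 of 3250, with 28 past the threshold. Whether replicate numbers link samples across rounds is not given in the sources used here, and they were not taken as pairs. The correlation of same-numbered deviations from the round means was -0.0137, 0.122 and 0.188 for T10 and T1, 0.0618, -0.284 and 0.00191 for T10 and T2 and 0.0202, -0.12 and 0.103 for T2 and T1. The highest with another number was 0.03, 0.0776 and -0.0731, then 0.145, 0.142 and 0.153, then 0.274, 0.128 and 0.0144. The picture was thus mixed: the same number was higher for replicates 2 and 3 of T10 and T1 and replicate 3 of T2 and T1, and lower elsewhere. With the replicate number as a block (replicate block) 0 members passed in each comparison, with smallest adjusted p-values of 0.158, 0.288 and 0.644 in limma, and over all probe sets 1 was higher and 4 lower for T10 against T1. The member medians did not move under the block, and they cannot move when every round holds the same replicate numbers. Signal limits the paralogs: 58 of the 74 members remained when probe sets under the median mean were left out, with 0 past the threshold in each comparison and smallest adjusted p-values of 0.0907, 0.296 and 0.725.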

Other observations

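Of the 7 members with more than 1 probe set, COX7C, COX7B and RFeSP each had a dim probe set beside bright ones. That of COX7C, with a mean signal of 5.76, was at 5.05, 5.16 and 5.61 in T10 and 6.61, 6.25 and 5.31 in T1, which is a difference of -0.78 log2 (standard error 0.353) that did not pass limma (adjusted p = 0.259), where the bright one had 0.06. That of COX7B, with a mean of 4.84, had a change of -0.36, where the bright ones had -0.05 and -0.13. That of RFeSP, with a mean of 3.37, had a change of 0.02, where the bright one had -0.13. For ATPsynbeta and ATPsyngamma the further probe sets had changes of 0.16 and 0.14, beside 0.05 and 0.09 at those used. Of the standard subunits 10 lay on the X chromosome, and none of the paralogs did.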
